A study of Mus musculus with 6 samples.

Results

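The integrated stress response and the targets of its main effector, the transcription factor ATF4, were examined in skin of wild type mice and of mice with a gene-targeted Hoxc13, which encodes a homeobox factor that acts in hair follicles. The 37 genes are a list of names taken for their known roles, drawn up with earlier results of these data known. They are the eIF2 kinases and eIF2 alpha, the ATF and CEBP factors, enzymes of amino acid and folate-linked synthesis, amino acid transporters, and genes of stress feedback. Of these, 35 had a named probe set among the 15644 named genes on the arrays, and Eif2s1 and Pycr1 had none. One set of 3 samples was wild type skin and the other set of 3 carried the allele Hoxc13tm1Mrc, labelled a knockout. All 6 were labelled male, C57BL/6 and 5 dpn. The sources used here do not say how many copies of the allele the mutant animals carried or whether a sample is 1 animal, although the design text calls the samples independent. Values are log2 expression on Affymetrix arrays, and their precision is limited by having 3 arrays a group.

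Phosphorylation of eIF2 alpha by any of several kinases slows most translation and at the same time favours translation of the Atf4 message. ATF4 then switches on genes for making, importing and charging amino acids, and the factor CHOP, encoded by Ddit3, while GADD34, encoded by Ppp1r15a, removes the phosphate again. In the skin, the growing hair follicle is a site of heavy protein synthesis, since the shaft is built of keratins and their associated proteins. The arrays read messages, so neither phosphorylation nor the amount of ATF4 protein was measured.

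Many ATF4 targets carry a CEBP-ATF response element, searched here as TGATGNAA on both strands, within 250 bases before and 50 after the RefSeq gene start (GRCm38.p6). It was found in 7 of the 31 measured genes of the set with a sequence in the table (22.6%), against 4.51% of 27025 genes in the whole table. The windows below show these elements upstream of the start, with the element in capitals and each window read along its gene's strand. They are shown because several of the messages described next come from these genes. Chac1, a further ATF4 target, is shown for its large decrease.
Asns (chr6:7693214-7693243, minus strand): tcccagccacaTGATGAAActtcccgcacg
Atf3 (chr1:191183425-191183454, minus strand): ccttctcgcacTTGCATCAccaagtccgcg
Nupr1 (chr7:126625562-126625591, minus strand): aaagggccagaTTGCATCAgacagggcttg
Herpud1 (chr8:94386306-94386335, plus strand): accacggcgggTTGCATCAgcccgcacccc
Pck2 (chr14:55540152-55540181, plus strand): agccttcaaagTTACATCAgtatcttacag
Vldlr (chr19:27216809-27216838, plus strand): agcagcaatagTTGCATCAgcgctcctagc
Chac1 (chr2:119351038-119351067, plus strand): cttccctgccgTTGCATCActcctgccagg
In Asns the element stands in the forward direction, starting 23 bases before the gene start. In the other 6 it is on the reverse strand, between 103 and 200 bases before the start. The seventh of the measured genes, Trib3, has its match just after the start. The endoplasmic reticulum stress element, searched on both strands as CCAAT and CCACG with any 9 bases between them, was found in 1 gene of the set, the chaperone gene Hspa5, and in 0.137% of the table.
Hspa5 (chr2:34772020-34772049, plus strand): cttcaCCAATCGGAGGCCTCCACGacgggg
Such matches describe these letters only and do not show binding.

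Before the members, some features of the arrays bear on every value. Mutant replicate 3 was unlike the other mutant arrays, correlating with them at 0.989 and 0.990 across probe sets, against 0.997 between those arrays. Differences are therefore given with and without it. The Hoxc13 probe set read 9.63, 9.81 and 9.83 in wild type and 8.95, 8.75 and 9.74 in mutant skin, so it did not separate mutant replicate 3 from wild type. The sources used here do not say where its probes lie relative to the altered sequence. All 6 arrays read 11.15 to 11.67 for Xist and 2.98 to 4.89 for 6 Y-linked probe sets, against the label male. Skin markers were high in both groups, with Krt5, a basal keratinocyte keratin, at 12.846 and 12.996 and Krt10, a keratin of upper layers, at 13.99 and 14.02 in wild type and mutant. In whole skin, fewer cells of a type and less RNA per cell cannot be told apart.

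Of the 35 measured genes, 1 passed the limma test with Benjamini-Hochberg adjustment over all 16331 probe sets at 0.05, and it was higher in mutant skin. That is Ddit3. The background rate of calls was 2.08% of all probe sets, 0.478% in the higher direction. Differences were below 0 in 19 members (54.3%) and in 42.4% of all probe sets. The median difference of the set was -0.0357 (log2, mutant minus wild type), against 0.0247 over all probe sets. No member differed by 2-fold, the largest being 1.40-fold. At an unadjusted p under 0.05 there were 10 members (28.6%), against 14.4% of all probe sets. Wild type and mutant values did not overlap in 9 members, 5 lower and 4 higher in mutant skin. Over all probe sets this was so in 20.3%, with 7.82% lower and 12.5% higher, so the lower ones stood at 14.3% of the set and the higher ones at 11.4%.

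**Figure D1:**
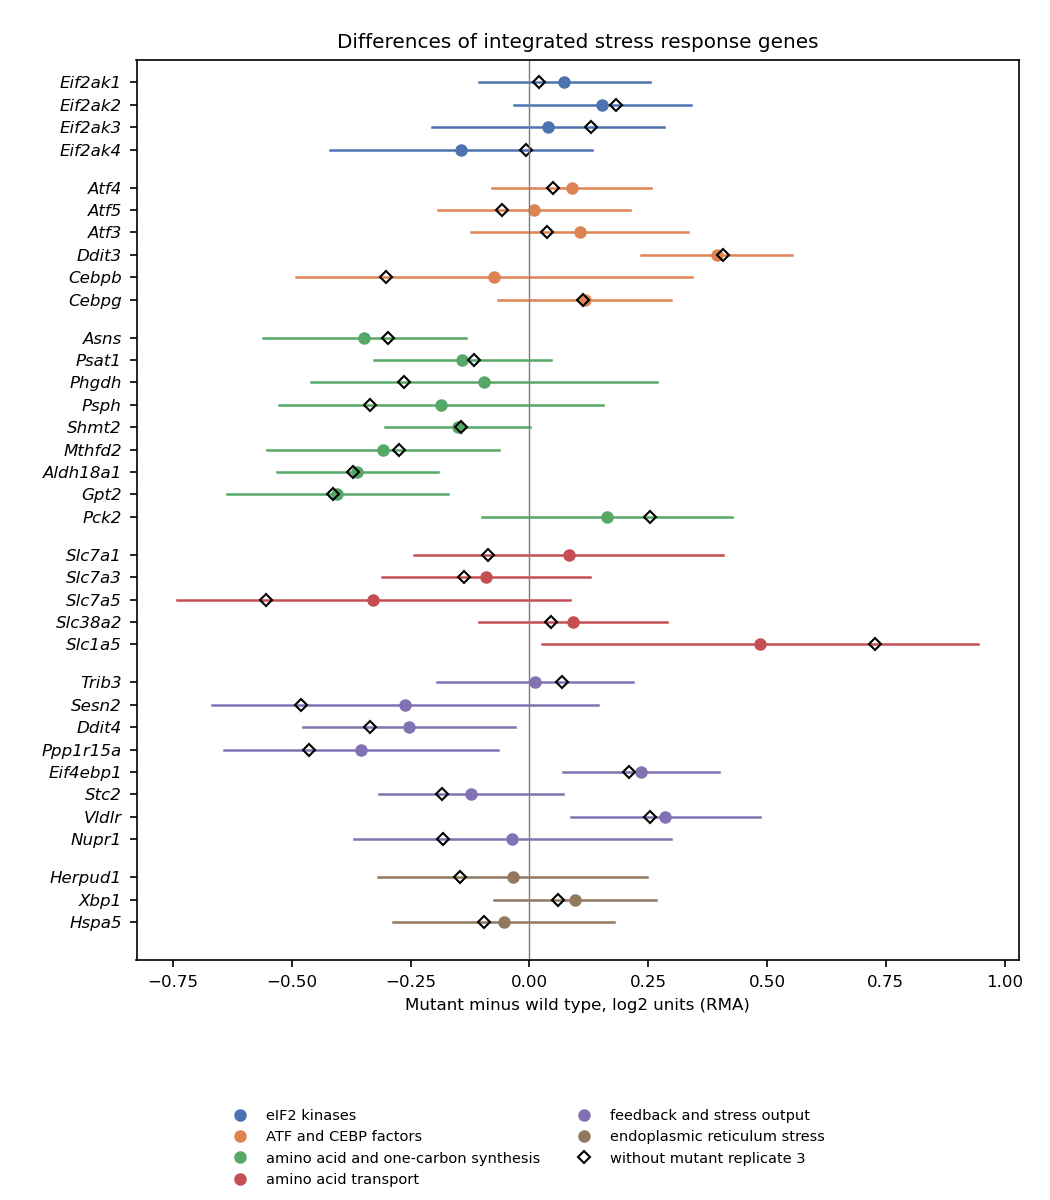
Difference between mutant and wild type skin (x axis, log2 units) for each of the 35 measured genes (y axis), grouped by role. Filled points are the limma difference over all 6 arrays with its 95% interval, and open diamonds the difference without mutant replicate 3. Slc1a5 (0.49, wide interval) and Ddit3 (0.39, narrow interval) lie farthest above 0, and 8 of 9 synthesis enzymes lie below 0.

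Upstream, none of the 4 measured kinase messages passed the test. Eif2ak2, which encodes the double-stranded RNA sensor PKR, read 6.12, 6.20 and 6.17 in wild type and 6.45, 6.25 and 6.26 in mutant skin. Its groups did not overlap, but the difference of 0.15 (95% interval -0.03 to 0.34) gave an adjusted p of 0.431 by limma. Eif2ak1, the haem-regulated kinase, was at 0.07 (-0.11 to 0.25), and Eif2ak3, which encodes the endoplasmic reticulum sensor PERK, at 0.04 (-0.21 to 0.28). Eif2ak4, which encodes GCN2, the sensor of uncharged tRNA, was at -0.14 (-0.42 to 0.13). Its 3 wild type values and mutant replicates 1 and 2 lay between 7.10 and 7.18, and mutant replicate 3 alone read 6.72.

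Among the ATF and CEBP factors, Ddit3 rose and 5 did not pass. Ddit3 (Entrez gene 13198), which encodes the stress-induced factor CHOP, read 8.004, 7.889 and 7.987 in wild type and 8.39, 8.35 and 8.33 in mutant skin. All 3 mutant values lay above all wild type values, and the mutant arrays were close to each other, mutant replicate 3 included. The means were 7.96 ± 0.06 and 8.35 ± 0.03 (SD, n = 3 each), a difference of 0.39 (SE 0.07, limma adjusted p = 0.0342), or 1.31-fold. Without mutant replicate 3 it was 0.41 (adjusted p = 0.0106). Leaving out any 1 of the other arrays ended the call, with differences of 0.36 to 0.42 and adjusted p up to 0.144.

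The message of Atf4 itself was at 0.09 (95% interval -0.08 to 0.26), with means of 11.04 ± 0.05 in wild type and 11.13 ± 0.07 in mutant arrays (SD, n = 3 each). Atf5, a related factor also controlled at translation, was at 0.01 (-0.19 to 0.21), and Atf3, an immediate stress factor, at 0.11 (-0.12 to 0.33). Cebpg, a dimer partner of ATF4, was at 0.12 (-0.07 to 0.30). These intervals bound the differences and do not show equal levels.

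Cebpb, a CEBP factor of epidermal differentiation and of stress, gave a split among the mutant arrays. It read 9.72, 9.86 and 9.76 in wild type skin and 9.46, 9.49 and 10.16 in mutant replicates 1, 2 and 3. Mutant replicates 1 and 2 lay below the wild type range and mutant replicate 3 above it. The difference was -0.07 over all arrays (limma adjusted p = 0.894) and -0.30 without mutant replicate 3 (adjusted p = 0.0329).

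**Figure D2:**
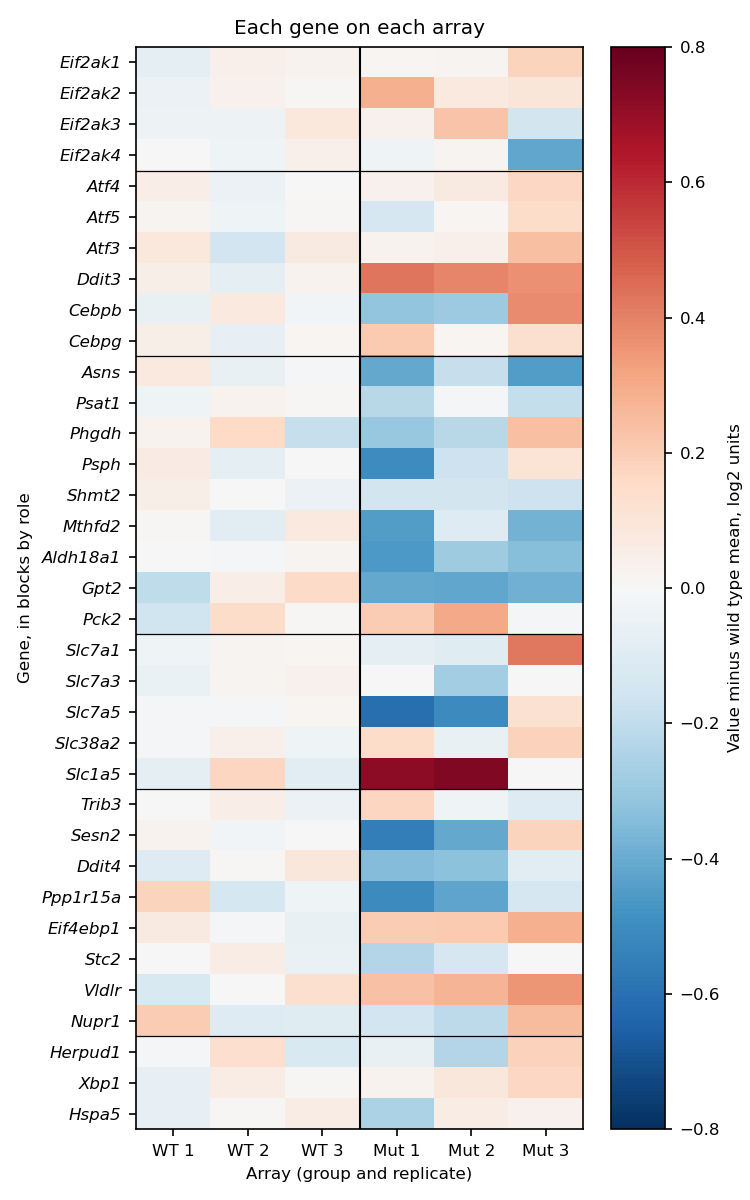
Value of each gene on each array minus its wild type mean (colour, log2 units, red higher and blue lower), with genes in rows in blocks by role and the 3 wild type (WT) and 3 mutant (Mut) arrays in columns. The Ddit3 row is red in all 3 mutant arrays, the rows of Asns, Aldh18a1 and Gpt2 are blue in all 3, and Slc7a5, Sesn2 and Cebpb are blue in replicates 1 and 2 only.

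The enzymes of amino acid and folate-linked synthesis had lower values in mutant skin in 8 of 9 measured genes, with a list median of -0.19 against 0.0247 over all probe sets. None passed the limma test with all 6 arrays, and 4 had an unadjusted p under 0.05. The groups did not overlap in 5 of the 9, all lower, where 7.82% of all probe sets were lower without overlap. Without mutant replicate 3 the median was -0.27 and 2 of the 9 were called, both lower, where 6.23% of all probe sets were called lower.

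Aldh18a1 (Entrez gene 56454), the enzyme that begins proline synthesis from glutamate, read 8.58, 8.57 and 8.60 in wild type and 8.12, 8.30 and 8.24 in mutant skin. The wild type values lay close together and all mutant values were below them. The difference was -0.36 (SE 0.07, 95% interval -0.53 to -0.19, limma adjusted p = 0.0577), just short of the threshold. Without mutant replicate 3 it was -0.37 (adjusted p = 0.0191).

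Gpt2 (Entrez gene 108682), the mitochondrial enzyme that makes alanine from pyruvate, read 7.91, 8.17 and 8.27 in wild type and 7.71, 7.70 and 7.73 in mutant skin. The mutant values nearly coincided, and the wild type spread made up most of the error. The difference was -0.40 (SE 0.10, limma adjusted p = 0.111), and without mutant replicate 3 it was -0.41 (adjusted p = 0.042).

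Asns, the asparagine synthetase whose upstream element is printed above, averaged 9.42 ± 0.07 in wild type arrays and 9.08 ± 0.14 in mutant arrays (SD, n = 3 each). The difference of -0.35 (95% interval -0.56 to -0.13) had a limma adjusted p of 0.134, and 0.0675 without mutant replicate 3. Mthfd2 and Shmt2, mitochondrial enzymes of folate-linked synthesis, were at -0.31 (adjusted p = 0.233) and -0.15 (adjusted p = 0.350), each without overlap of the groups. Shmt2 read 9.04 to 9.05 on all 3 mutant arrays, against 9.15 to 9.24 in wild type.

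The serine synthesis enzymes proper showed smaller or mixed values. Phgdh, which commits glycolytic carbon to serine, was at -0.10, Psat1, the transaminase of the next step, at -0.14, and Psph, the final phosphatase, at -0.19 (limma adjusted p = 0.833, 0.468 and 0.611). In Phgdh and Psph the third mutant array exceeded every wild type value while mutant replicates 1 and 2 lay below them all. Without that array these genes were at -0.26 and -0.33, still not past the threshold (adjusted p = 0.144 and 0.079). Pck2, a mitochondrial enzyme that makes phosphoenolpyruvate, was the exception in direction, at 0.16 (adjusted p = 0.554).

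None of the 5 amino acid transporters passed with all 6 arrays, and none had groups without overlap. Slc7a5 (Entrez gene 20539), the large neutral amino acid exchanger LAT1, read 9.06, 9.05 and 9.08 in wild type and 8.46, 8.56 and 9.19 in mutant skin. Mutant replicates 1 and 2 lay well below the narrow wild type range, and mutant replicate 3 just above it. The difference was -0.33 (SE 0.18, limma adjusted p = 0.445), and -0.55 without mutant replicate 3 (adjusted p = 0.00257).

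Slc1a5 (Entrez gene 20514), the glutamine transporter ASCT2, had a difference of the opposite sign. Its values were 8.62, 8.86 and 8.60 in wild type and 9.41, 9.44 and 8.70 in mutant skin. Mutant replicates 1 and 2 stood above every wild type array, and mutant replicate 3 was within the wild type range. The difference was 0.49 (SE 0.20, limma adjusted p = 0.322), the largest of the set, and 0.73 without mutant replicate 3 (adjusted p = 0.00306). Slc7a1, a carrier of cationic amino acids, was at 0.08, and Slc38a2, a sodium-coupled carrier of small neutral amino acids, at 0.09. Slc7a3, a related cationic carrier, read 4.59 to 4.90, about the top of the Y-linked range, so neither group was shown to be above background.

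In the feedback and stress output list none of the 8 passed with all 6 arrays. The list median was -0.079, and 3 members, all lower, were called without mutant replicate 3 (37.5%, where 6.23% of all probe sets were called lower). Sesn2 (Entrez gene 230784), a leucine-sensing inhibitor of mTORC1, read 8.27, 8.22 and 8.24 in wild type and 7.69, 7.83 and 8.42 in mutant skin. It showed the same split as Slc7a5, with mutant replicate 3 above the wild type range. The difference was -0.26 (limma adjusted p = 0.538), and -0.48 without that array (adjusted p = 0.00611).

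Ddit4, which encodes the mTORC1 inhibitor REDD1, read 10.03, 10.14 and 10.22 in wild type and 9.79, 9.81 and 10.04 in mutant skin. Its mutant replicate 3 lay inside the wild type range, near the lower end. The difference was -0.25 (limma adjusted p = 0.287), and -0.34 without that array (adjusted p = 0.0304). Ppp1r15a, which encodes GADD34, read 9.12, 8.80 and 8.90 in wild type and 8.43, 8.52 and 8.80 in mutant skin. Here too mutant replicate 3 just reached the lowest wild type value. The difference was -0.35 (adjusted p = 0.247), and -0.46 without it (adjusted p = 0.0238). The sign of this difference, which did not pass with all arrays, was opposite to that of Ddit3, also an ATF4 target.

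Vldlr, the very low density lipoprotein receptor, read 7.50, 7.62 and 7.75 in wild type and 7.86, 7.90 and 7.98 in mutant skin. All mutant values were above the wild type values, but the difference of 0.29 (SE 0.09) did not pass (limma adjusted p = 0.179). Eif4ebp1, a repressor of cap-dependent initiation, was also higher without overlap, at 0.23 (adjusted p = 0.183). Trib3, a pseudokinase that restrains ATF4, was at 0.01, the stress-response protein gene Nupr1 at -0.04 and the secreted glycoprotein gene Stc2 at -0.12 (adjusted p = 0.975, 0.944 and 0.55).

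The endoplasmic reticulum genes stood close to 0. Xbp1, the factor spliced by the sensor IRE1, read 11.56, 11.68 and 11.63 in wild type and 11.65, 11.71 and 11.79 in mutant skin. The groups overlapped, with a difference of 0.10 (limma adjusted p = 0.598). The array value does not separate spliced from unspliced Xbp1. The luminal chaperone gene Hspa5 was at -0.05 (95% interval -0.29 to 0.18) and Herpud1, a component of protein disposal at that membrane, at -0.04 (-0.32 to 0.25).

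**Figure D3:**
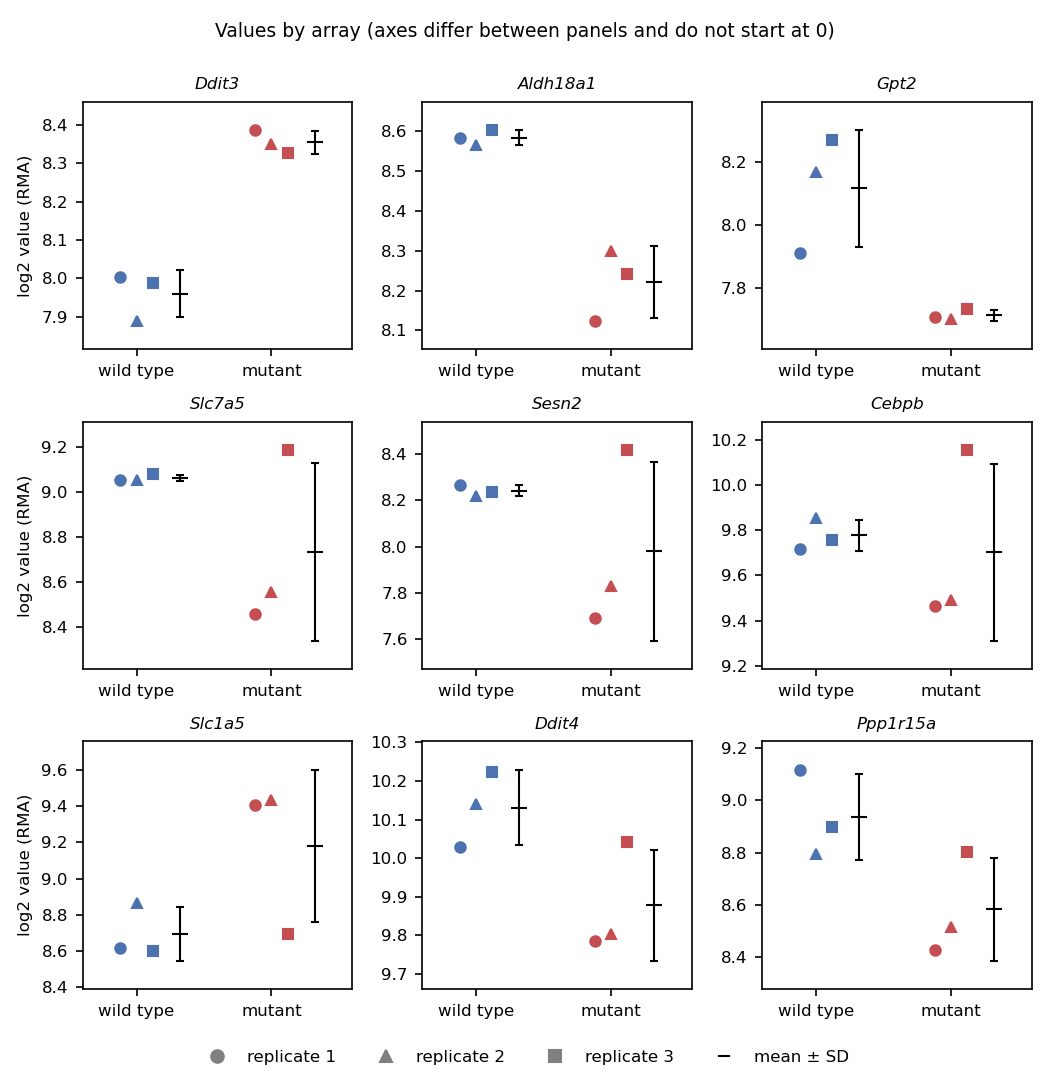
Log2 values (y axis, different in each panel) of the 9 genes called without mutant replicate 3, for the 3 wild type (blue) and 3 mutant (red) arrays. Marker shape gives the replicate and the black bar the mean ± SD (n = 3). Ddit3, Aldh18a1 and Gpt2 separate the groups on all arrays, and in the other 6 genes mutant replicate 3 lies within the wild type range or beyond it.

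Without mutant replicate 3, 9 of the 35 genes passed the threshold, 7 lower and 2 higher (Ddit3 and Slc1a5). That is 25.7% of the set, where 14.2% of all probe sets passed in this fit. The lower calls were 20% of the set against 6.23%, and the higher ones 5.71% against 7.95%. In 3 of the 9 (Ddit3, Aldh18a1 and Gpt2) mutant replicate 3 stayed on the mutant side of the wild type range. In 3 it lay within that range (Slc1a5, Ddit4 and Ppp1r15a), and in the other 3 it was above the range although the other mutant arrays were below (Slc7a5, Sesn2 and Cebpb). This fit rests on 2 mutant arrays that correlate at 0.997. Wild type arrays were close to each other for most of the set, with an SD under 0.1 in 26 of 35 genes. The SD over mutant arrays was larger than over wild type arrays in 29 of 35 genes, and in 67.9% of all probe sets. Mutant replicate 3 was the mutant array standing farthest apart in 21 of 35 genes, and in 55.8% of all probe sets. Mutant replicates 1 and 2 both lay below the wild type range in 15 of 35 genes and above it in 6. Over all probe sets these shares were 20.5% and 27.2%.

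Markers of several cell types also read differently on mutant replicate 3. Compared with the mean of mutant replicates 1 and 2, it was higher in 8 of 8 inner root sheath, 7 of 8 basal keratinocyte, 7 of 7 pigment cell and 4 of 4 sebaceous gland markers. It was lower in all 9 skeletal muscle and all 6 fat cell markers, in 6 of 7 macrophage and in 5 of 6 dividing-cell markers. It was also lower in all 8 hair shaft markers, by a median of -0.41, and in 7 of 8 markers of differentiated epidermis. Several hair shaft markers read near the Y-linked range on the mutant arrays, such as Krt86 at 5.01, 5.27 and 4.71. Differences among mutant arrays in the hair shaft markers are therefore limited by background. Summed log2 levels of the 8 basal keratinocyte markers were 83.61 to 84.73 in wild type, 85.22 and 85.15 in mutant replicates 1 and 2, and 87.31 in mutant replicate 3. Those of the 9 muscle markers were 93.91 to 105.44 in wild type, 107.73 and 102.34 in mutant replicates 1 and 2, and 97.97 in mutant replicate 3. The part of cell makeup in the values of Slc7a5, Sesn2, Cebpb and Slc1a5 was not tested.

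The other genes of the pathway, 78 measured in 4 lists, held 2 calls (2.56%), near the 2.08% of all probe sets. Both were lower in mutant skin and both were in the list of other reported ATF4 targets (22 measured). The background in that direction was 1.6% of all probe sets. Chac1 (Entrez gene 69065), which encodes an enzyme that breaks down glutathione and is known as a target of ATF4 in stressed cells, had the largest difference. It read 9.98, 8.88 and 9.24 in wild type and 6.25, 6.21 and 6.65 in mutant skin. All mutant values lay more than 2 log2 units below the lowest wild type value. The difference was -2.999 (SE 0.26, limma adjusted p = 0.00111), or 7.99-fold, and -3.14 without mutant replicate 3. It passed in each fit that left out 1 array (-3.24 to -2.69), and not without variance moderation (adjusted p = 0.0919).

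Cth (Entrez gene 107869), which encodes the enzyme that releases cysteine from cystathionine, read 9.44, 9.07 and 9.33 in wild type and 8.32, 8.51 and 8.08 in mutant skin. It fell by 0.98 (SE 0.14, limma adjusted p = 0.0136), with mutant replicate 3 the lowest array. The call was lost without wild type replicate 1 (-0.89, adjusted p = 0.0746), wild type replicate 3 (-0.95, adjusted p = 0.0819) or mutant replicate 1 (-0.99, adjusted p = 0.0605), and with all arrays without variance moderation (adjusted p = 0.169). It was -0.86 without mutant replicate 3 (adjusted p = 0.00399). Hair shaft markers were lower with these genes, with all 8 called lower and summed log2 levels of 97.20 to 100.30 in wild type against 42.63 to 46.35 in mutant skin. The part of the shaft cells in the values of Chac1 and Cth was not tested.

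Over all 22 other ATF4 targets the median difference was -0.0528. Without mutant replicate 3, 9 of them were called (40.9%), where 14.2% of all probe sets were called. The 7 lower calls were 31.8% of the list against 6.23%, and the 2 higher ones 9.09% against 7.95%. Slc3a2, the heavy chain that pairs with Slc7a5 in the membrane, is singled out here with its values already known. It read 11.098, 10.921 and 11.102 in wild type and 10.669, 10.641 and 11.059 in mutant skin, with mutant replicate 3 again at the wild type level. Its difference was -0.25 (limma adjusted p = 0.41), and -0.39 without that array (adjusted p = 0.0201). Cbs, Hmox1, Slc38a1 and Slc7a11 of the same list also had larger differences in that fit, at -0.64, -0.61, -0.60 and -0.49, all called lower. Of these, only Cbs had groups without overlap over all 6 arrays.

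**Figure D4:**
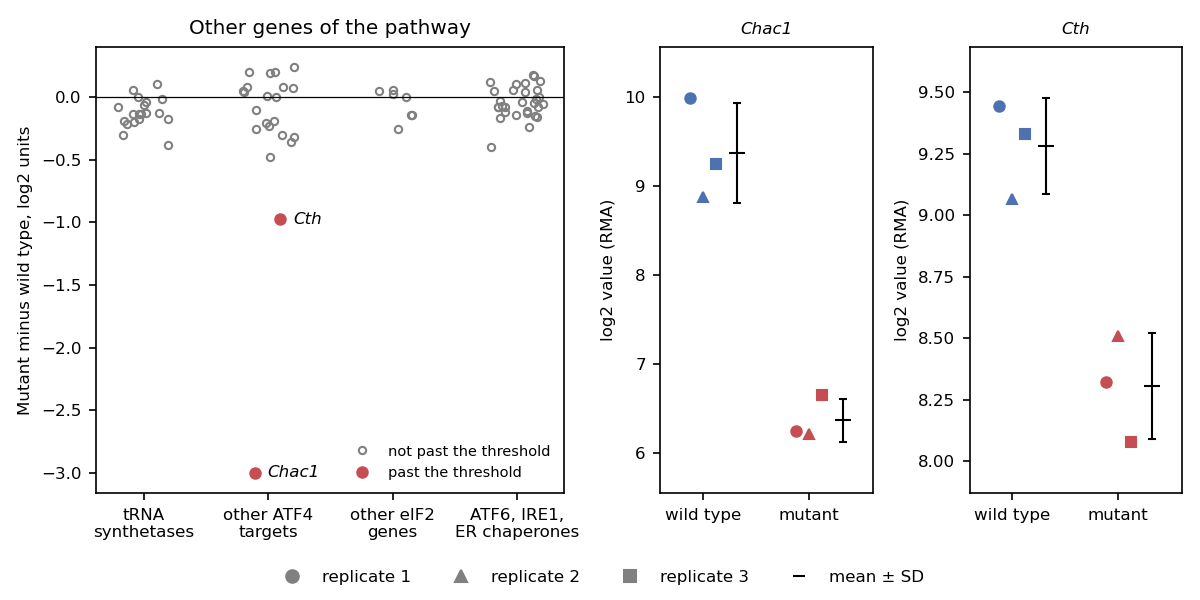
Left, the difference between mutant and wild type skin (y axis, log2 units) for the 78 other pathway genes in 4 lists, spread sideways for display, with filled points past the threshold. Right, log2 values of Chac1 and Cth on each array (marker shape gives the replicate, bars the mean ± SD, n = 3). Apart from Chac1 at -2.999 and Cth at -0.98, all points lie between -0.47 and 0.24.

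The aminoacyl-tRNA synthetases, which load amino acids onto tRNA and of which several are ATF4 targets, were lower in mutant skin in 16 of 19 measured genes, with a median of -0.13, where 42.4% of all probe sets were lower. None passed the limma test, and 5 had an unadjusted p under 0.05. The groups did not overlap in 8 (42.1%), of which 7 were lower (36.8%), where 20.3% of all probe sets did not overlap and 7.82% were lower without overlap. Yars, the tyrosyl-tRNA synthetase, had the smallest p. It read 9.14, 9.14 and 9.17 in wild type and 8.79, 8.87 and 8.88 in mutant skin, so the groups were well apart. The difference was -0.31 (SE 0.07, adjusted p = 0.0739), and -0.32 without mutant replicate 3 (adjusted p = 0.0197). In that fit 3 of the 19 passed (15.8%), near the 14.2% of all probe sets, and all 3 were lower, where 6.23% of all probe sets were called lower. The response element was present in 5 of the 12 synthetase genes with a sequence (41.7%), Yars among them.

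In the list of the ATF6 and IRE1 arms and the chaperones of the endoplasmic reticulum, none of 30 genes passed with all 6 arrays. The median was -0.0513. The groups did not overlap in 4 of the 30 (13.3%), where 20.3% of all probe sets did not overlap. Wfs1, a membrane protein of that compartment, had the smallest p. It read 8.40, 8.26 and 8.38 in wild type and 7.85, 7.95 and 8.04 in mutant skin, without overlap. The difference was -0.40 (limma adjusted p = 0.0562), and -0.44 without mutant replicate 3 (adjusted p = 0.0101). The endoplasmic reticulum stress element was found in 8 of 25 genes with a sequence (32%), chaperone genes such as Hsp90b1, Calr and Canx among them. Those 3 genes were at 0.11, -0.24 and -0.01, none past the threshold with all 6 arrays. Without mutant replicate 3, Calr was called at -0.42 (limma adjusted p = 0.0387), while Hsp90b1 (0.15) and Canx (-0.04) were not. In that fit 3 of the 30 genes were called, all lower (10%, where 6.23% of all probe sets were called lower). Of 7 other eIF2 and phosphatase genes none passed, the smallest p being that of Eif2s2, the beta subunit of eIF2, at -0.14 (adjusted p = 0.381).

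The genes with a printed CEBP-ATF element did not share a direction. Chac1 fell, Asns was at -0.35, and Nupr1 and Herpud1 were at -0.04. Atf3 was at 0.11, Pck2 at 0.16 and Vldlr at 0.29, none of these 6 past the threshold. No match was found in this window for Ddit3, Aldh18a1 or Gpt2, which says only that these letters are not within it.

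Markers of other cell types that the skin holds give the setting of these values. Over all probe sets, 1.6% were called lower and 0.478% higher with all 6 arrays. Without mutant replicate 3 these shares were 6.23% and 7.95%. Of 7 pigment cell markers 1 was called lower and all 7 differences were below 0, with summed log2 levels of 72.94 to 74.14 in wild type and 68.56 to 72.64 in mutant skin. In the fit without mutant replicate 3, 6 of the 7 were called lower, where 6.23% of all probe sets were. All 7 macrophage and all 6 mast cell markers had differences above 0, with none called over all arrays. The mast cell marker Fcer1a read 3.59 to 3.88 on all arrays, within the Y-linked range. Another, Kit, was at 0.06 with all arrays and at -0.15 without mutant replicate 3. Leaving out mutant replicate 3, 4 of the 7 and 3 of the 6 were called higher, where 7.95% of all probe sets were. Of 8 inner root sheath markers 2 were called lower, the keratin genes Krt72 (-2.20, limma adjusted p = 0.0106) and Krt26 (-1.90, adjusted p = 0.000172), and 4 were called lower without mutant replicate 3. The 4 sebaceous gland markers all had differences below 0, with a median of -0.74, and 3 were called lower without that array and none with it. Of 9 skeletal muscle markers 8 had differences above 0, with a median of 0.59, none called over all arrays and 3 called higher without mutant replicate 3. Of 6 fat cell markers 4 had differences above 0, and 3 were called higher without that array and none with it. None of the 6 markers of dividing cells was called, with summed levels of 57.45 to 57.73 and 56.72 to 58.48. Among 4 erythroid markers Epb42 and Rhag read 3.18 to 4.28 on all arrays, within the Y-linked range, while Alas2 read up to 8.54. The basal keratinocyte list had 1 of 8 called higher, Lamb3 (0.40, limma adjusted p = 0.0494). In this list 7 of 8 differences were above 0, and 2 genes were called higher without mutant replicate 3. Its groups were higher without overlap in 3 of 8, where 12.5% of all probe sets were. The list of 8 differentiated epidermis markers had 1 called lower, Ivl, and summed levels of 102.02 to 102.26 in wild type against 101.16 to 102.96 in mutant skin. The part of any of these cells in the values above was not tested.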

How the data were processed

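The authors deposited log2 values per probe set. The submitters' processing notes name RMA, without a version. RMA subtracts background, forces all arrays to the same distribution and summarises probes, so shifts in total RNA are invisible and differences near background shrink. Per the labels' protocols, labelling started from an oligo(dT) primer and reads 3′ ends. With 64 control probe sets set aside, 16331 were tested, 687 of them without a gene name here. Each gene had 1 probe set. Genes were matched by symbol or Entrez number, with RefSeq (GRCm38.p6) for names and promoters.

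Groups were taken from sample titles. The test was limma 3.58.1 under R 4.3.3, with lmFit and eBayes, two-sided, without filter or block, and Benjamini-Hochberg adjustment over all probe sets at 0.05. The median standard error was 0.0914. P-values reflect only the spread among these samples. Intervals are 95%. The fit was tested on simulated data with the same noise level on every array. That test does not cover an array that stands apart, as mutant replicate 3 did. Figures used matplotlib 3.10.9 in Python 3.11.15.

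The members and lists were chosen with earlier results of these data known. Values on every array are given for members called with all arrays or without mutant replicate 3 and for the smallest p of each role. From each pathway list, called genes or the smallest p were named. Hsp90b1, Calr, Canx, Slc3a2, Cbs, Hmox1, Slc38a1 and Slc7a11 were named after their values were seen. Alternatives were a low-level filter, repeated quantile normalisation, centring, a trended robust prior, array weights, a replicate block, an unmoderated fit and fits without each array.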

Additional observations from a re-analysis of the deposited data

How the results depend on the processing

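The number of calls depended on mutant replicate 3 and on the model of the error. Over all probe sets the limma count of 339 was 151 to 2316 when single arrays were left out, 1880 with array weights, 197 with the replicate number as a block and 84 without variance moderation. Among the 35 genes the count of 1 was 0 to 9 when single arrays were left out, 9 with array weights, and 0 with the replicate block or without moderation, where 10 and 7 members had an unadjusted p under 0.05. Same-numbered arrays deviated together at correlations of 0.036, -0.119 and -0.0873, and differently numbered ones at -0.1205 to 0.2369. With 3 arrays a group, such correlations cannot decide whether the numbers pair the samples. Under the block the adjusted p was 0.122 for Ddit3, 0.0504 for Cth and 0.00285 for Chac1. A low-level filter, repeated quantile normalisation, centring and a trended robust prior each left Ddit3 as the single call. Signs of small differences turned with array weights for Atf5 (-0.0444) and Slc7a1 (-0.0484). With single arrays left out they turned for Eif2ak3 (-0.0558 to 0.13), Atf5 (-0.0577 to 0.0823), Cebpb (-0.30 to 0.0447), Phgdh (-0.26 to 0.0083), Slc7a1 (-0.088 to 0.17), Slc7a3 (-0.14 to 0.0025), Trib3 (-0.0672 to 0.0688), Nupr1 (-0.18 to 0.0652), Herpud1 (-0.15 to 0.0632) and Hspa5 (-0.11 to 0.0463). The cause was not tested. Signal near background limits Slc7a3.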
